A study of Homo sapiens with 4 samples.

Results

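Ribosomal proteins are the protein parts of the cell's 2 kinds of ribosome. The cytosolic ribosome translates the messages of the nuclear genome and has a large 60S and a small 40S subunit, whose proteins carry the prefixes RPL and RPS. The mitochondrial ribosome translates the few messages of mitochondrial DNA, which encode core subunits of oxidative phosphorylation. Its proteins, MRPL and MRPS, are also encoded in the nucleus, made in the cytosol and imported. Cytosolic ribosomal protein messages are among the most abundant in growing cells, and most begin with a 5′ terminal oligopyrimidine tract (5′ TOP), a C followed by pyrimidines, through which growth signals such as mTOR control their translation. The members described here were all array probes whose gene name begins with RPL, RPS, MRPL or MRPS and a digit, or is RPLP0, RPLP1 or RPLP2, without the RPS6K kinases. They were 315 of 41000 different probes and 167 of 30982 gene names, of which 209 probes of 90 names were cytosolic and 106 probes of 77 names were mitochondrial. The name rule also took in RPS19BP1, which encodes a protein that binds RPS19, MRPS36, now regarded as a subunit of a metabolic enzyme, and 5 names of pseudogenes.

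The cells were HCT116, an established human colorectal carcinoma line. The samples were 2 HCT116 clones that stably express a shRNA against N-BLR, a long non-coding RNA, named clone #3-1 and clone #4-7, with 2 Agilent 2-colour arrays for each. The Cy5 channel held RNA of the shRNA clone and the Cy3 channel RNA of an HCT116 clone with the empty vector on each of the 4 arrays, without a dye swap, so every value is a log2 ratio of shRNA clone over empty vector. The labels name lentivirus as the carrier of the shRNA and the methods a transfected pSuper vector and selection of clones with an aminoglycoside (geneticin). Each shRNA line is 1 clone, the empty vector is 1 control sample shared by both comparisons, and the p-values measure only the spread between arrays of a clone. The comparison asks how silencing of N-BLR changes the messages of the cells. No probe carried the name N-BLR, so the silencing itself could not be checked on the arrays. E-cadherin (CDH1), the adhesion protein of epithelial cells, had log2 ratios of -2.61 and -2.59 in clone #3-1 and -1.37 and -1.32 in clone #4-7. By the labels' dyes E-cadherin was thus lower in the shRNA clones, which is opposite to the direction that the study describes, and every sign below rests on those labels and would turn if the dyes had been exchanged. Of the 8 colon epithelial marker genes on the array 6 were well above background on all arrays, as were 3 of 4 leukocyte, 1 of 4 fibroblast and 1 of 2 endothelial marker genes.

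Both sets were well measured. All 106 mitochondrial probes and 205 of the 209 cytosolic probes were well above background in both channels on all 4 arrays. The 4 exceptions, among them probes of RPL39L and RPL10, did not pass the test. Of the cytosolic probes 11 were saturated on at least 1 array, and no mitochondrial probe was. The median SD between the 2 arrays of a clone was 0.033 in clone #3-1 and 0.028 in clone #4-7 for cytosolic probes, and 0.024 and 0.025 for mitochondrial probes, on the log2 scale.

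The starts of the genes differ between the sets. RefSeq promoter windows of 300 bases (GRCh38.p14) were found for 68 of the 90 cytosolic and 68 of the 77 mitochondrial names. A 5′ TOP start, taken as a C at the annotated start and at least 4 further pyrimidines, was present in 61.8% of cytosolic, 7.35% of mitochondrial and 4.04% of all 27305 windows. The motif CCGGAAG, the core bound by ETS factors such as GABP, was present on either strand in 33.8% of cytosolic, 41.2% of mitochondrial and 10.7% of all windows. AAGATGGCG, the core of the YY1 motif, was present in 7.35%, 19.1% and 1.85%, and GCGCATGC, the NRF1 motif, in 4.41%, 8.82% and 3.27%. GGGCGG, bound by Sp1, was present in 51.5%, 61.8% and 44.6% of the windows, and CACGTG, the E-box bound by MYC, in 5.88%, 10.3% and 7.43%. The motifs were searched on both strands, none of them contains another, and a match describes letters and not a bound site. The stretches shown are those of some of the genes to which the results below return. They run from 45 bases before the annotated start through 15 bases from it, 5′ to 3′ along the gene. A 5′ TOP tract or a CCGGAAG motif (CTTCCGG on the other strand) is in capitals. They lie at chr22:39319609-39319668 (RPL3, minus strand), chr1:6199581-6199640 (RPL22, minus), chr1:153990717-153990776 (RPS27, plus), chr5:150449725-150449784 (RPS14, minus), chr14:22829842-22829901 (MRPL52, plus), chr10:100987483-100987542 (MRPL43, minus), chr2:27771674-27771733 (MRPL33, plus), chr19:3762637-3762696 (MRPL54, plus) and chr12:93467469-93467528 (MRPL42, plus).
RPL3: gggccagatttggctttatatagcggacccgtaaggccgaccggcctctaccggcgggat
RPL22: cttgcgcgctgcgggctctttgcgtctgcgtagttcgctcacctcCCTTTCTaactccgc
RPS27: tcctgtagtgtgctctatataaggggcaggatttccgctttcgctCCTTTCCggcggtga
RPS14: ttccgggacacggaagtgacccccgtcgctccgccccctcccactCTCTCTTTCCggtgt
MRPL52: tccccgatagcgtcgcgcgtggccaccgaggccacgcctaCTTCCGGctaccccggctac
MRPL43: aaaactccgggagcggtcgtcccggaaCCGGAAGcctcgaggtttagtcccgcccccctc
MRPL33: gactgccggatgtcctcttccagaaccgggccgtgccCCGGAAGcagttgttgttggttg
MRPL54: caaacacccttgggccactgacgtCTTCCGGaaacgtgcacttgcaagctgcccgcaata
MRPL42: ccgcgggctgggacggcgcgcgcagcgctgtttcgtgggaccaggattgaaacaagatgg
RPL22, RPS27 and RPS14 show a 5′ TOP tract at the annotated start, and the annotated start of RPL3 is not followed by one. The mitochondrial stretches show no such tract, and 4 of the 5 shown hold CCGGAAG. Of the small subunit genes named below, MRPS10 holds CCGGAAG in the same stretch, which is not shown, and MRPS5 and MRPS6 do not.

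Cytosolic ribosomal protein probes tended to be lower in both shRNA clones, while mitochondrial ribosomal protein probes lay near 0 in clone #3-1 and above 0 in clone #4-7. Both clones carried the same dye and were compared with the same empty vector clone. Whether a shift shared by the clones came from the dye or from that control was therefore not tested. In the difference between the clones, where a constant dye effect and the control cancel, the cytosolic median was -0.01. There 3.35% of cytosolic probes were lower and 2.87% higher in clone #3-1, against 11.5% and 11% of all probes. In clone #3-1, 105 of 209 cytosolic probes (50.2%) fell and 16 rose (limma p below 0.001), against 16.4% and 16.2% of all 41000 probes. In clone #4-7, 98 (46.9%) fell and 22 rose, against 15% and 16% of all probes. The mitochondrial counts were 17 lower (16%) and 18 higher (17%) of 106 in clone #3-1, and 3 lower (2.83%) and 36 higher (34%) in clone #4-7. Nearly all members were well above background, and among all such probes 23.8% fell and 24% rose in clone #3-1. In clone #4-7 these shares were 21.9% and 23.5%. The mitochondrial shares of clone #3-1 lay below those of all such probes in both directions. The median cytosolic log2 ratio was -0.22 and -0.21 on the arrays of clone #3-1 and -0.19 and -0.22 on those of clone #4-7. The mitochondrial medians were -0.01 and 0.01 in clone #3-1 and 0.16 and 0.13 in clone #4-7, and the median of all probes was between 0.00 and 0.01 on every array. The cytosolic median was therefore below the mitochondrial one by 0.21 and 0.23 on the arrays of clone #3-1 and by 0.35 and 0.35 on those of clone #4-7. Without quantile normalization between arrays the cytosolic shift was smaller, with medians of -0.10 and -0.12 in the clones, and 70 and 74 probes fell while 35 and 29 rose. Of all probes 15.6% and 14.9% then fell, and 15% and 11.8% rose. With the array software's own processed signals 35 and 45 cytosolic probes fell, against 9.69% and 9.33% of all probes. With the brightest probe per gene the cytosolic medians were -0.16 in clone #3-1 and -0.08 in clone #4-7. Leaving out either array of clone #3-1 left 48 and 55 lower probes there, and leaving out either array of clone #4-7 left 40 and 44, as the calls over all probes dropped too.

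**Figure D1:**
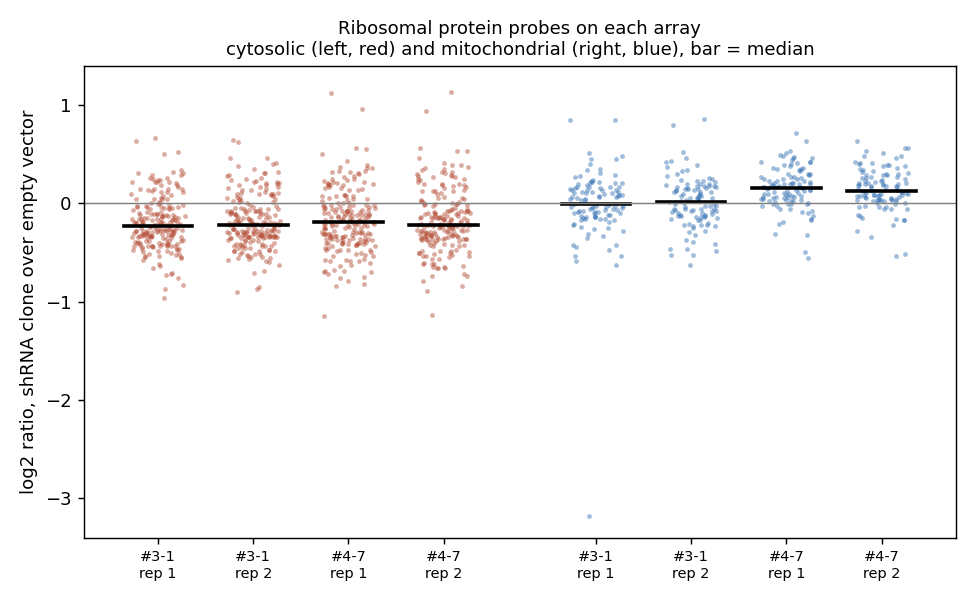
Each point is 1 probe on 1 array, plotted as the log2 ratio of shRNA clone over empty vector, with cytosolic ribosomal proteins on the left and mitochondrial ones on the right; black bars are medians. The cytosolic medians lie between -0.22 and -0.19 on all 4 arrays, and the mitochondrial medians are near 0 on the arrays of clone #3-1 and at 0.16 and 0.13 on those of clone #4-7; the lone point at -3.18 is a probe of MRPL35.

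Both cytosolic subunits took part. Of the 113 probes of 60S proteins 60 fell and 6 rose in clone #3-1, and 59 fell and 7 rose in clone #4-7. Of the 70 probes of 40S proteins 37 fell and 7 rose in clone #3-1, and 36 fell and 6 rose in clone #4-7. The medians of the 60S probes were -0.25 and -0.24 in the clones, and those of the 40S probes -0.26 and -0.21. Where a gene had more than 1 probe, as 58 cytosolic names outside the Y chromosome did, all of its probes fell for 14 names in clone #3-1 and for 12 in clone #4-7. RPL34 of the 60S subunit had 6 such probes, from -0.50 to -0.29 in clone #3-1 and from -0.60 to -0.38 in clone #4-7. RPL29, a further 60S protein, had 4, from -0.55 to -0.40 and from -0.59 to -0.51. The 3 probes of RPS9, a protein of the 40S subunit, lay between -0.61 and -0.33 in clone #3-1 and between -0.65 and -0.33 in clone #4-7.

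RPL3 and RPL22 gave the lowest values. RPL3 encodes a 60S protein that reaches towards the peptidyl transferase centre. Its probe at chr22:38034199-38034635 (hg17) read -0.87 and -0.87 on the arrays of clone #3-1 and -0.79 and -0.83 on those of clone #4-7. These are 0.547 and 0.569 times the empty vector level (adjusted p = 2.8e-05 and 4.0e-05, limma with Benjamini-Hochberg adjustment). The other RPL3 probes had means of -0.93 and -0.84 in clone #3-1 and of -0.79 and -0.76 in clone #4-7, so that all arrays lay well below 0. RPL22 encodes a 60S protein that is dispensable for translation and also binds other RNAs. Its probe at chr1:6180305-6180364 (hg17) read -0.76 and -0.70 in clone #3-1 and -1.14 and -1.13 in clone #4-7, lower in clone #4-7 by 0.40 (SE 0.043, adjusted p of the difference 0.0014). The RPL22 probes at chr1:6180857-6180916 and chr1:6180622-6180681 had means of -0.70 and -0.40 in clone #3-1 and -0.86 and -0.54 in clone #4-7. Another probe named RPL22, for which the files give no position, read -0.03 and -0.08 in clone #3-1 and 0.25 and 0.19 in clone #4-7, apart from the other 3. RPL22L1, the paralog that can take the place of RPL22 in the ribosome, had means of 0.14 and 0.00 and did not pass the test in either clone.

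RPL5 and RPL11, which with 5S RNA form the particle that restrains MDM2 when ribosome assembly is disturbed, were also low. RPL11 read -0.33 and -0.48 in clone #3-1 and -0.42 and -0.43 in clone #4-7 (adjusted p = 0.0010 and 0.00090, limma). The RPL5 probe at chr1:93011151-93011210 read -0.39 and -0.35 in clone #3-1 and -0.19 and -0.25 in clone #4-7, and it fell in each. The other RPL5 probe had means of -0.26 and -0.11 and did not pass the test in either clone. RPS6, the 40S protein phosphorylated downstream of mTOR, read -0.38 and -0.35 in clone #3-1 and -0.37 and -0.36 in clone #4-7. RPS3, at the entry of the mRNA channel, had 2 probes with means of -0.40 and -0.25 in clone #3-1 and -0.39 and -0.21 in clone #4-7, and both fell in each clone. RPS14, a 40S protein whose loss marks the 5q- syndrome, had its 3 probes at -0.49, -0.17 and -0.16 in clone #3-1 and at -0.68, -0.40 and -0.36 in clone #4-7. All 3 passed the test in clone #4-7, and only the first did in clone #3-1. RPS19, mutated in Diamond-Blackfan anaemia, had means of -0.31 and -0.29 in clone #3-1 and of -0.21 and -0.14 in clone #4-7. The second probe did not pass the test in clone #4-7, and without quantile normalization it read 0.04 in clone #3-1.

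The acidic stalk, which recruits the elongation factors to the 60S subunit, gave values on both sides of 0. RPLP1 had one probe that rose in both clones, with 0.31 and 0.35 in clone #3-1 and 0.20 and 0.24 in clone #4-7, and a second one with means of 0.17 and 0.27. RPLP2 had means of -0.16 and -0.12. The 3 probes of RPLP0, the stalk's base, had means of -0.26, -0.06 and 0.12 in clone #3-1 and of -0.12, 0.07 and 0.33 in clone #4-7, so that they did not share a sign. The RPLP0 probe at -0.26 read 0.05 in clone #3-1 without quantile normalization. Over the 6 stalk probes 1 fell and 1 rose in clone #3-1, and none fell and 2 rose in clone #4-7.

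In clone #3-1 the cytosolic probes that rose were mostly among the brightest spots. Of the 16 that rose in clone #3-1, 13 had a mean log2 intensity of 17 or more, against 33 of the 105 that fell, and 3 against 0 were saturated on an array. In clone #4-7 these counts were 12 of 22 and 32 of 98, with 5 against 0 saturated. Of all 209 cytosolic probes 98 were that bright, so the share among the probes that rose in clone #4-7 was near that of the whole set. The probe of RPS2, a 40S protein, at chr16:1952082-1952138 (hg17) read 0.64 and 0.64 in clone #3-1 and 0.96 and 0.94 in clone #4-7, and it was saturated on 3 arrays. RPS26 had a probe at 0.29 and 0.46 and at 0.56 and 0.54, and RPS21 one at 0.34 and 0.32 and at 0.55 and 0.53, with both genes encoding 40S proteins. The probes of RPL23AP13, a name given to a pseudogene of RPL23A, rose with means of 0.56 and 0.32 in clone #3-1 and of 1.13 and 0.50 in clone #4-7, at low intensity. RPL38 (0.24 and 0.32) and RPL41 (0.26 and 0.36), which encode small 60S proteins, rose too.

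Probes of the same gene did not always agree in direction. For 6 cytosolic names, RPL6, RPL7A, RPL10, RPL22, RPS2 and RPS28, at least 1 probe rose and at least 1 fell within the same clone, and for 1 mitochondrial name, MRPL49. RPS2 was the widest case: in contrast to the probe that rose, the one at chr16:1952676-1952735 read -0.40 and -0.48 in clone #3-1 and -0.75 and -0.74 in clone #4-7. RPS28 of the 40S subunit had 1 probe at 0.52 and 0.38 in clone #3-1, saturated on all 4 arrays, and 1 at -0.44 and -0.51. RPL7A had a probe that read 0.22 and 0.27 in clone #4-7, where it rose, and 3 others with means from -0.31 to -0.21, of which 2 fell. In clone #3-1 that probe read 0.22 and 0.14 without passing the test, and the 3 others fell, with means from -0.39 to -0.27. RPL10, the 60S protein fitted last during ribosome maturation, had 1 probe at 0.66 and 0.40 in clone #3-1, and its other 5 had means from -0.31 to -0.13. Ribosomal protein genes have many processed pseudogenes, and by the files' hg17 positions 6 of 209 cytosolic probes lay on another chromosome than the RefSeq gene of their name, 5 of them RPL21 probes on chromosome 10, and none of the 106 mitochondrial probes did. The 5 RPL21 probes on chromosome 10 had means from -0.56 to -0.29 in clone #3-1 and the 9 on chromosome 13, where the gene lies, from -0.63 to -0.05, so that these ranges overlapped. How the authors' probes share signal among such copies was not tested.

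**Figure D2:**
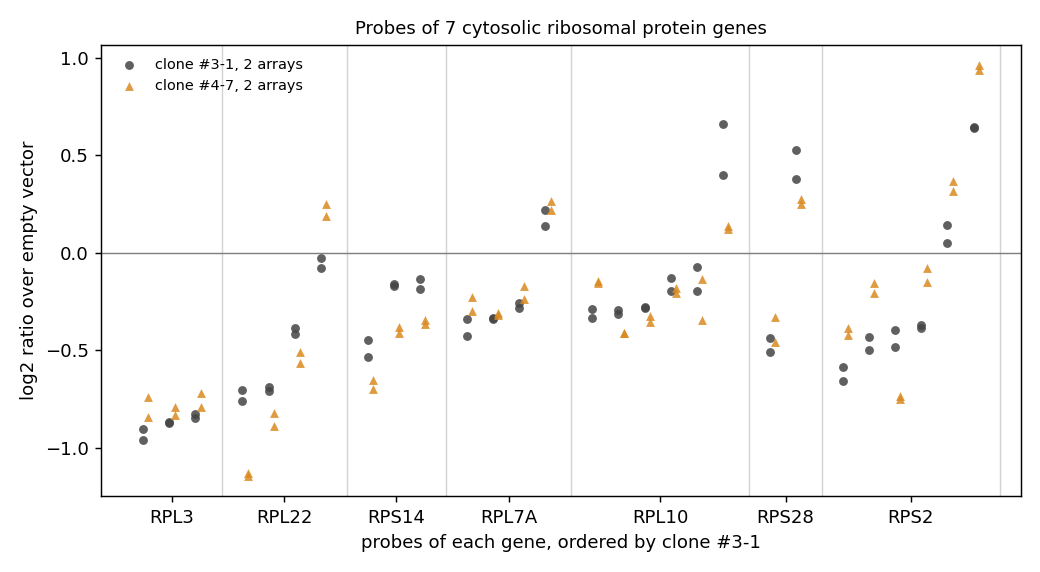
Each column is 1 probe, grouped by gene and ordered by its mean in clone #3-1; the vertical axis is the log2 ratio over the empty vector, with circles for the 2 arrays of clone #3-1 and triangles for the 2 of clone #4-7. The 3 RPL3 probes all lie below -0.7, while RPS2 runs from -0.75 to 0.96.

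The mean spot intensity differed between the sets, and the result was read against it. Of the 232 probes with a mean log2 intensity of 17 or more 98 were cytosolic ribosomal protein probes (42.2%), and none was mitochondrial. In the range from 14 to 16, where the sets had 35 and 36 probes, the cytosolic medians were -0.40 in clone #3-1 and -0.38 in clone #4-7, and the mitochondrial medians 0.09 and 0.17. There 31 and 30 of the 35 cytosolic probes fell, and none of the 36 mitochondrial ones did in either clone. Of the 1489 other probes in this range 393 and 314 fell, with medians of 0.01 and 0.08. In the other ranges below 17 the medians of all other probes lay between -0.07 and 0.02. From 12 to 14, with 12 and 49 probes, the cytosolic medians were -0.25 and -0.15 and the mitochondrial ones -0.03 and 0.13. The contrast was not seen in every range. From 10 to 12, with 7 and 10 probes, the cytosolic medians were -0.44 and -0.21, but the mitochondrial median in clone #3-1 was also low, at -0.23 with 5 of 10 probes lower, and it was 0.06 in clone #4-7. Below 10 the 15 cytosolic probes had medians of -0.05 and -0.01 and the 11 mitochondrial ones 0.05 and 0.08. From 16 to 17 the 42 cytosolic probes had medians of -0.24 and -0.27. At 17 and over the cytosolic medians were -0.16 and -0.11, and those of the other 134 probes 0.06 and 0.13. With the loess curves fitted without the ribosomal protein probes, an alternative chosen after seeing the data, 106 and 97 cytosolic probes fell. Of all probes 16.4% and 15% did.

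**Figure D3:**
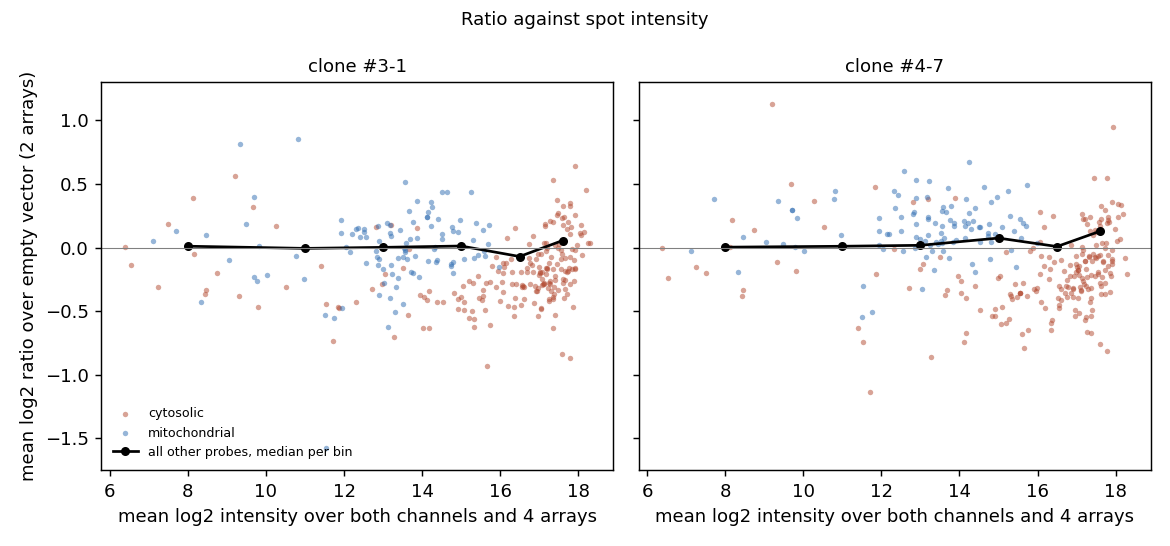
Mean log2 ratio over the empty vector against mean log2 intensity over both channels and all arrays, 1 point per probe, for each clone; the black line joins the medians of all other probes in 6 ranges of intensity. Between 14 and 16 the cytosolic points centre on -0.40 and -0.38 and the mitochondrial ones on 0.09 and 0.17.

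Paralogs of cytosolic proteins, some of which replace them in particular tissues, gave values on both sides of 0. Of their 13 probes 4 fell and none rose in clone #3-1, and 1 fell and 4 rose in clone #4-7. RPS27L, a p53 target and close relative of RPS27, read -0.22 and -0.18 in clone #3-1 and 0.24 and 0.32 in clone #4-7, a difference of -0.48 (SE 0.048, adjusted p = 0.0012, limma). RPS27 itself had means of -0.54 and -0.17 in clone #3-1 and of -0.53 and -0.11 in clone #4-7, and neither probe passed the test of the difference. RPL7L1 read -0.43 and -0.42 in clone #3-1 and -0.01 and -0.01 in clone #4-7, and its second probe had means of -0.47 and -0.21. RPL7 had 1 probe at -0.43 and -0.43 in clone #3-1 and -0.48 and -0.50 in clone #4-7. Its second probe read -0.15 on the only array of clone #3-1 with a value and had a mean of -0.02 in clone #4-7, where it did not pass the test. The 3 probes of RPL26L1 had means between 0.15 and 0.18 in clone #3-1 and between 0.36 and 0.39 in clone #4-7, while RPL26 had means of -0.21 and -0.20, and of -0.26 and -0.18. RPL36AL had means of -0.31 and -0.10, and the probes of RPL36A had 0.02 and -0.27 in clone #3-1 and -0.05 and -0.38 in clone #4-7. RPL3L, the form of striated muscle, read 0.12 and 0.25 in clone #3-1 and -0.19 and -0.22 in clone #4-7 at low intensity. RPL39L was not well above background, and RPL39 had means of 0.03 and -0.16 in clone #3-1 and of -0.25 and -0.28 in clone #4-7.

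The mitochondrial ribosomal protein probes that rose were led by 1 probe each of MRPL52 and MRPL43, both of the large subunit. The MRPL52 probe at chr14:22373936-22373995 (hg17) read 0.85 and 0.85 in clone #3-1 and 0.44 and 0.46 in clone #4-7, or 1.81 and 1.36 times the empty vector level (adjusted p = 2.6e-05 and 0.00015, limma). The probe of MRPL43 at chr10:102731132-102731191 read 0.84 and 0.79 in clone #3-1 and 0.39 and 0.33 in clone #4-7. It was the only 1 of the 4 MRPL43 probes to pass the test in either clone. The medians of the 4 were 0.02 in clone #3-1 and 0.09 in clone #4-7. These MRPL52 and MRPL43 probes were both higher in clone #3-1 than in clone #4-7 without overlap. MRPS6 of the small subunit ran the other way, with 0.31 and 0.34 in clone #3-1 and 0.71 and 0.63 in clone #4-7. MRPS18C (0.45 and 0.42, then 0.47 and 0.48) and MRPL18 (0.49 and 0.39, then 0.49 and 0.39) rose by like amounts in the clones, and their differences of -0.04 (SE 0.040) and -0.01 (SE 0.058) did not pass the test.

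MRPL45, which tethers the ribosome to the inner membrane, had a probe at -0.53 and -0.53 in clone #3-1 and -0.56 and -0.53 in clone #4-7. MRPL2, a core protein of the large subunit, had one at -0.58 and -0.52 and at -0.49 and -0.52. MRPS27, a pentatricopeptide repeat protein of the small subunit, read -0.33 and -0.22 in clone #3-1 and -0.31 and -0.35 in clone #4-7. MRPL12, which also binds the mitochondrial RNA polymerase, lay near 0 with means of 0.00 and 0.04, and MRPS30 had 0.08 and -0.03. MRPL11 had means of 0.15 and 0.32 and rose in clone #4-7. MRPL41 had -0.09 and 0.17 and MRPS18B 0.06 and 0.25, and neither passed the test in either clone. The 2 probes of MRPS12, the counterpart of a bacterial decoding protein, had means of -0.03 and -0.19 in clone #3-1 and of 0.08 and -0.08 in clone #4-7. MRPS18A had -0.14 and 0.00. A probe of MRPL35 read -3.18 and 0.02 in clone #3-1 and -0.32 and -0.28 in clone #4-7, and it passed no test.

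**Figure D4:**
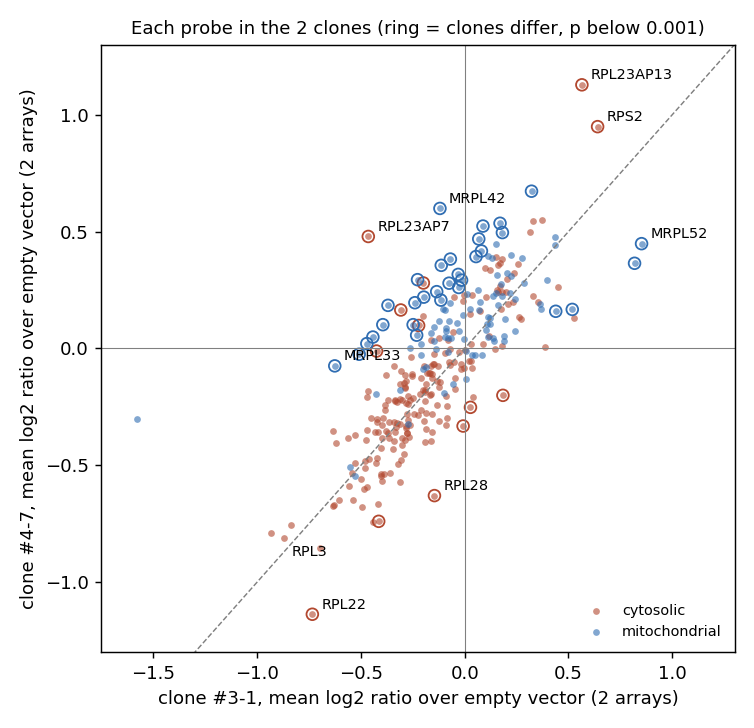
Mean log2 ratio over the shared empty vector in clone #3-1 (horizontal) and clone #4-7 (vertical), 1 point per probe; the dashed line marks equal values and a ring a probe whose clones differed at p below 0.001. Of the mitochondrial rings 27 lie above the line and 4 below it.

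The clones were then compared with each other, a contrast in which the shared control and a constant dye effect cancel. A larger share of mitochondrial than of cytosolic probes passed this test, and most of them were lower in clone #3-1. Of 106 mitochondrial probes 27 (25.5%) were lower and 4 were higher in clone #3-1 than in clone #4-7, against 11.5% and 11% of all probes. Of 209 cytosolic probes 7 (3.35%) were lower and 6 (2.87%) higher. Among all probes well above background, as nearly all members were, 16.7% were lower and 16.3% higher. The median difference was -0.14 for mitochondrial and -0.01 for cytosolic probes. Of the 36 probes with MRPS names, mostly of the small subunit, 15 were among the 27 lower ones (41.7%) and none was higher. Their median difference was -0.23, and the MRPS36 probe was 1 of the 15. The large subunit had 12 lower and 4 higher of 69 under MRPL names, with a median of -0.12. With the array software's processed signals 7 mitochondrial probes were lower (6.6%) and 2 higher, against 5.83% and 5.95% of all probes. Without background offset 7 (6.6%) were lower and 0 higher, against 5.48% and 5.09%. With plain background subtraction 3.77% were lower, against 4.23% of all probes. The share of lower mitochondrial probes was thus near that of all probes under these 3 settings, with median differences of -0.13, -0.14 and -0.14. With any 1 array left out, the median mitochondrial difference lay between -0.14 and -0.13.

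The 27 probes belonged to 23 genes, with differences from -0.72 to -0.29. They were of 2 main kinds, since 9 had fallen in clone #3-1 without passing the test in clone #4-7 and 15 had risen in clone #4-7 without passing in clone #3-1, while 1 rose in both and 2 passed in neither. MRPL42, of the large subunit, had a probe at -0.10 and -0.14 in clone #3-1 and at 0.64 and 0.56 in clone #4-7. This is a difference of -0.72 (SE 0.047, adjusted p = 0.00033, limma). Its other probe had means of 0.11 in clone #3-1 and 0.10 in clone #4-7 and did not pass the test of the difference. MRPL54, also of the large subunit, read -0.35 and -0.39 in clone #3-1 and 0.19 and 0.18 in clone #4-7. MRPL33, a small protein of the large subunit, had 2 probes, with -0.62 and -0.63 and with -0.53 and -0.48 in clone #3-1. In clone #4-7 they read -0.09 and -0.06 and -0.01 and -0.04, so that neither overlapped its values in clone #3-1. In the small subunit MRPS5 read -0.48 and -0.47 against 0.02 and 0.02, and MRPS33 -0.43 and -0.46 against 0.06 and 0.04. MRPS16 read -0.42 and -0.37 against 0.09 and 0.11, and 2 of the 3 probes of MRPS10 and both probes of MRPS6 were lower in clone #3-1 as well. The third MRPS10 probe differed by -0.11 and did not pass. The 4 probes that were higher in clone #3-1 were 2 of MRPL52 and 1 each of MRPL43 and MRPL49.

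**Figure D5:**
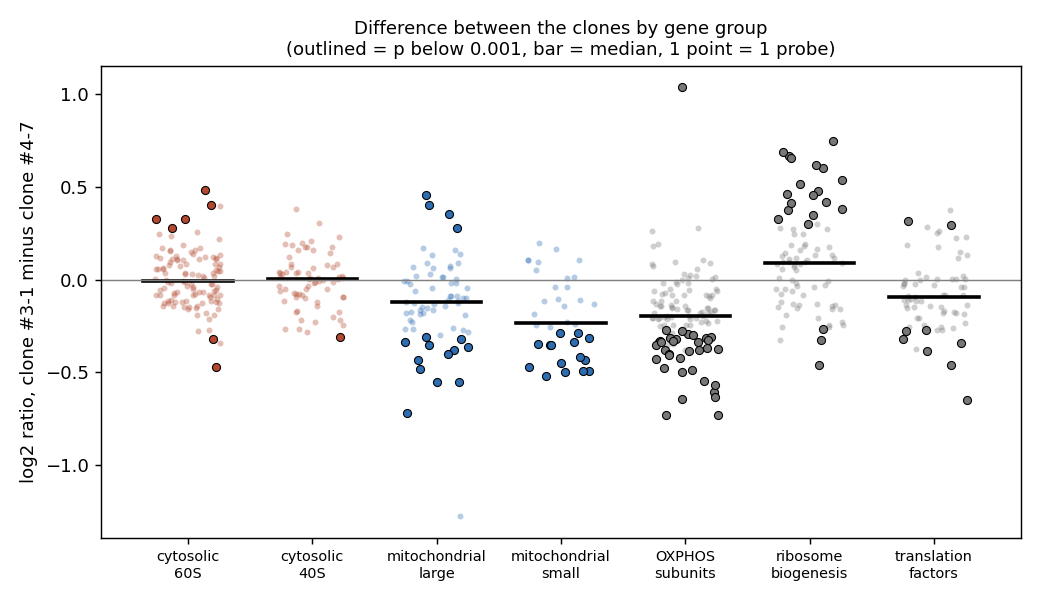
Difference in log2 ratio, clone #3-1 minus clone #4-7, 1 point per probe, by subunit and for 3 lists of other genes; outlined points passed p below 0.001 and bars are medians. The mitochondrial small subunit (all MRPS names, MRPS36 included) and the oxidative phosphorylation subunits lie mostly below 0, with medians of -0.23 and -0.20, and the cytosolic subunits are centred on 0.

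Among cytosolic names the largest difference was that of RPL23AP7, a name given to a pseudogene of RPL23A, whose probe at chr2:114085258-114085302 (hg17) read -0.47 and -0.46 in clone #3-1 and 0.50 and 0.46 in clone #4-7. It was the 1 cytosolic probe that fell in clone #3-1 and rose in clone #4-7. RPL28, a 60S protein, had a probe at -0.13 and -0.17 in clone #3-1 and at -0.62 and -0.63 in clone #4-7.

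Other genes of the pathway were described in the same way, by lists chosen with earlier results of these data known. Among all probes well above background, 24% rose and 23.8% fell in clone #3-1, and 23.5% rose and 21.9% fell in clone #4-7. Of 8 probes of 3 cytosolic ribosomal proteins with other names 4 rose and 1 fell in clone #3-1, and 5 rose and 1 fell in clone #4-7. FAU, which encodes a ubiquitin-like protein fused to a 40S protein, had a probe at 0.38 and 0.33 and at 0.57 and 0.45. Of 67 probes of cytosolic translation factors 30 fell and 9 rose in clone #3-1, and 26 fell and 10 rose in clone #4-7. EEF1A1, which brings aminoacyl-tRNA to the ribosome and has a 5′ TOP message like the ribosomal proteins, had a probe at -1.13 and -1.15 and at -0.82 and -0.78. EIF4B, a cofactor of the eIF4A helicase, had one at -0.98 and -1.04 and at -0.73 and -0.78. Of 82 probes of ribosome biogenesis genes 29 rose (35.4%) and 10 fell (12.2%) in clone #3-1. In clone #4-7, 18 rose (22%) and 17 fell (20.7%), which is near the shares among all probes well above background. EBNA1BP2, a factor of 60S assembly, had a probe at 1.07 and 1.06 and at 0.69 and 0.69, NIP7, also of 60S assembly, one at 0.87 and 0.80 and at 0.92 and 0.83, and MYC, which drives the programme, one at -0.60 and -0.62 and at -0.79 and -0.80. Between the clones 18 of the 82 ribosome biogenesis probes were higher (22%) and 3 lower (3.66%) in clone #3-1, against 16.3% and 16.7% of all probes well above background.

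Subunits of oxidative phosphorylation encoded in the nucleus differed between the clones in the direction of the mitochondrial ribosomal proteins. Of 117 probes 31 fell (26.5%, near the share among all probes well above background) and 12 rose (10.3%) in clone #3-1. In clone #4-7, 11 fell (9.4%) and 48 rose (41%). Between the clones 34 (29.1%) were lower and 1 was higher in clone #3-1. The median difference was -0.20. ATP5L, a subunit of ATP synthase, had a probe at -0.64 and -0.67 and at -0.60 and -0.55, and UQCRQ, of complex III, one at 0.37 and 0.46 and at 0.63 and 0.63. Factors of mitochondrial translation and mtDNA expression had 10 of 53 probes higher (18.9%) and 5 lower (9.43%) in clone #3-1 than in clone #4-7. Among all probes well above background these shares were 16.3% and 16.7%, so the higher share was near that of all such probes. Of the 7 probes of mitochondrial ribosomal proteins with other names 3 and 4 rose in the clones and none fell, among them DAP3, a GTPase of the small subunit, with 0.21 and 0.26 and with 0.20 and 0.22.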

How the data were processed

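HCT116 RNA was hybridised to 4 Agilent 44K 2-colour arrays, 2 for each shRNA clone. The authors deposited, per array, mean spot and median background intensity of both channels from Feature Extraction, its processed intensities, and log10 ratios of Cy5 over Cy3, which a second deposited table repeats within 0.005. Each array held 43376 probe spots, and 87 to 125 spots flagged as outliers were left out. Between 68.5% and 72.6% of spots per channel were well above background. The deposited files also flag each spot as an outlier, saturated or well above background, scores of 0 or 1 set by the software. All arrays lay on a single slide, scanned at a single time.

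The methods of the study name limma, background correction, normalization within arrays and quantiles between them, but neither normexp, its offset nor loess, which were chosen here. Intensities were background corrected (normexp, offset 50), control spots were then removed, and log2 ratios were normalized by loess within and quantiles between arrays and averaged per probe (R 4.3.3, limma 3.58.1). A linear model with a mean for each clone was fitted over all 41000 probes, and unadjusted p below 0.001 was the threshold, with Benjamini-Hochberg adjusted p beside it. No spread of the empty vector enters the test against 0. Precision is limited by the few arrays. The pipeline was tested on simulated data.

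Members, gene lists and tests were chosen with earlier results of these data known. Named probes were, per set and direction, the 5 with the largest mean change among those that passed in both clones and were well above background on all arrays, the 3 with the largest clone difference, those whose calls disagree, a fixed list (stalk proteins, RPL5, RPL11, RPS3, RPS6, RPS14, RPS19, RPL10, paralog pairs and 10 MRPL and MRPS genes), and up to 3 per other list. RPL21, RPL29, RPL34, RPL38, RPL41, RPS9, MRPL35, MRPS5, MRPS10, MRPS16 and MRPS33 were named after their values were seen. Levels of Y-linked members are not given. Ratios, not levels, are compared between probes. Alternatives covered background, normalization, filters, saturated probes, adjusted p, a replicate block, the brightest probe per gene and leaving out each array.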

Additional observations from a re-analysis of the deposited data

Results flagged for a closer look

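The probes below were named in the results and differed between the clones by limma's test of the difference (p below 0.001, 2 arrays per clone); values are log2 differences, clone #3-1 minus clone #4-7, and no explanation was weighed. Of cytosolic names RPL23AP7 differed by -0.94, RPL23AP13 by -0.56 and RPL7L1 by -0.41, each in 1 of 2 probes, and RPS27L by -0.48. RPS2 differed by -0.31 in 1 of its 6 probes, a saturated one, while another RPS2 probe differed by 0.30 and did not pass. RPL28 differed by 0.48 and RPL39 by 0.28, each in 1 of 2 probes, and RPL3L by 0.38. RPL22 differed by 0.40 in 1 of its 4 probes, while another differed by -0.27 and did not pass. Of mitochondrial names MRPL42 differed by -0.72 in 1 of its 2 probes, MRPL54 by -0.55, MRPL33 by -0.55 and MRPS6 by -0.35. MRPL43 differed by 0.45 in 1 of its 4 probes, MRPL52 by 0.40 and 0.35 in its 2 probes, and MRPL49 by 0.28 in 1 of its 3 probes. Groups of 2 arrays are too small for a test of single outlying arrays.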

How the results depend on the processing

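Counts follow the order cytosolic higher, cytosolic lower, mitochondrial higher, mitochondrial lower, and are given where they moved by over 1.5 times; the cause was not tested except where fewer probes or arrays were tested. With a normexp offset of 0 they were 3, 45, 6 and 10 in clone #3-1, and 9, 49 and 15 (mitochondrial higher) in clone #4-7. The difference then gave 1, 1, 0 and 7, and the cytosolic minus mitochondrial medians were -0.23 and -0.36. Shares of all probes, higher then lower, were 9.38% and 9.54% in clone #3-1, 8.29% and 8.05% in clone #4-7. For the difference they were 5.09% and 5.48%, and the shares below follow this order. With plain background subtraction the counts were 0, 31, 6 and 7 in clone #3-1 and 5, 35 and 13 in clone #4-7, with 0, 1, 0 and 4 for the difference and a median of -0.36 in clone #4-7. All probes gave 7.58% and 7.74%, 6.87% and 7.1%, and 4.21% and 4.23%. The 7 mitochondrial probes lower in clone #3-1 (6.6%) were thus near the share of all probes. The software's processed signals gave 35 cytosolic lower, 6 and 9 in clone #3-1, and 9, 45 and 15 in clone #4-7. For the difference they gave 3, 1, 2 and 7, and the medians were -0.15, -0.32 and, for the difference, 0.21. All probes gave 10% and 9.69%, 9.09% and 9.33%, and 5.95% and 5.83%. The authors' table gave 44 cytosolic lower and 11 mitochondrial higher in clone #3-1, 9 and 54 cytosolic in clone #4-7, 2 cytosolic lower in the difference, and medians of -0.15, -0.32 and 0.20. All probes gave 10.9% and 10.5%, 10.3% and 10%, and 7.36% and 7.14%. Without quantile normalization 35 cytosolic probes were higher in clone #3-1, 5 mitochondrial lower in clone #4-7 and 4 cytosolic lower in the difference, and the medians were -0.094, -0.20 and 0.15. All probes gave 15% and 15.6%, 11.8% and 14.9%, and 10.8% and 9.17%. At an adjusted p below 0.05 there were 34 cytosolic higher, 38 and 34 mitochondrial in clone #3-1, then 37, 63 and 8 in clone #4-7, and 29, 35, 8 and 51 for the difference. All probes gave 27.9% and 26.6%, 27.4% and 24.6%, and 20.9% and 21.6%. With the brightest probe per gene (90 and 77 tested) the counts were 10 and 29 cytosolic in clone #3-1 and 13 and 28 in clone #4-7, with 0 and 3 cytosolic and 2 mitochondrial higher in the difference and medians of -0.18 and -0.25. All genes gave 16.1% and 16.4%, 15.6% and 15.2%, and 11.2% and 11.5%. Among probes well above background there were 6 mitochondrial lower in clone #4-7, 13 and 14 cytosolic in the difference, and a median of -0.23 in clone #3-1. Of all such probes, fitted alone, 26.7% were lower in clone #4-7, and 21.7% were higher and 22.1% lower in the difference. Median centring gave 3 cytosolic higher in the difference, against 10.3% of all probes, and -0.35 in clone #4-7, and leaving out saturated probes gave medians of -0.26 and -0.37. The median's sign held under all alternatives.

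Leaving out 1 array at a time gave, in clone #3-1, 5 to 7 cytosolic higher, 48 to 87 lower, 7 to 12 mitochondrial higher and 9 to 10 lower. In clone #4-7 it gave 6 to 17, 40 to 85, 13 to 28 and 2 to 4, and for the difference 1 to 4, 1 to 5, 0 to 1 and 7 to 11. The medians ranged from -0.23 to -0.21, from -0.36 to -0.35 and from 0.12 to 0.13. A clone left with 1 array is assumed to vary like the other.

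The labels number the arrays of each clone 1 and 2. Deviations of same-numbered arrays had a correlation of -0.01 over all probes and of 0.12 over the members. With 2 pairs and no label that ties the numbers together, they were not taken to pair the arrays. With the replicate block 11 mitochondrial probes were lower in clone #3-1, and 2 cytosolic were higher and 15 mitochondrial lower in the difference. Of all probes 13.9% were then lower in clone #3-1, and 8.67% were higher and 9.13% lower in the difference. Reversed signs were few: the RPLP0 probe A_23_P204472 in clone #3-1 read 0.023 with processed signals, 0.014 in the authors' table and 0.053 without quantile normalization, where RPLP0 A_32_P116881 read 0.29 and RPS19 A_24_P134074 0.041. The clone difference of RPS2 A_23_P106708, saturated on 3 arrays, was 0.081 with processed signals, 0.081 in the authors' table and 0.066 without quantile normalization, against -0.31. Of 127 calls on named probes 124 kept their direction throughout, and 49 stayed past the threshold in every setting that tested the probe, other than leaving out an array. Depth is not a limit for the members, nearly all well above background, but 11 cytosolic probes were saturated.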
